A study of Mus musculus with 22 samples.

Results

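The 10 genes described here, Alb, Afp, Gc, Ahsg, Apoh, Kng1, Fgb, Fgg, Igfbp1 and Ttr, encode proteins that the liver secretes into the blood. They were taken by name from the 53801 genes of the bulk count tables, and they had been listed because liver-type plasma protein transcripts fell in the RPE (retinal pigment epithelium) of AdipoR1-/- mice. The bulk RPE values therefore chose the genes, and they are given below as a description without a test. The name of the group held for 9 of the 10 genes. Ttr did not fall: each of its KO (AdipoR1-/-) RPE libraries was above each WT library.

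The study asked how the loss of AdipoR1, a receptor for adiponectin with ceramidase activity, changes gene expression in the eye. The bulk samples were retina and RPE at P30 of WT and AdipoR1-/- mice, with 4 libraries for each of the 4 groups, and all animals were on the C57BL/6J strain. The KO mice were homozygous for a constitutive allele carried in every tissue, the liver included. RPE cells were shaken off the posterior eyecup after the retina and the anterior segment had been removed, and retinas of both eyes of a mouse were collected. Single cells came from dissociated retinae of the same 2 genotypes at P19, P25 and P30, with 1 library for each genotype and age and 4 retinae in each library.

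Hepatocytes make most circulating plasma proteins, among them albumin and other carriers, protease inhibitors and the subunits of fibrinogen. Their genes are switched on by factors of the HNF1, HNF4, FOXA and C/EBP families, and Afp is active in the fetal liver and yolk sac and shut down after birth. The RPE borders the choroidal blood vessels and forms the outer blood-retina barrier. It also makes transthyretin, the product of Ttr, which carries thyroxine and, bound to the retinol-binding protein RBP4, retinol.

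Bulk libraries held between 20133143 and 38409496 counted reads in RPE and between 22734843 and 35118164 in retina. Adipor1 checked the genotype labels: it stood at 374 to 479 CPM (the normalised count of a gene scaled to a fixed library total) in WT RPE and 139 to 152 CPM in KO RPE, and at 589 to 607 CPM in WT retina and 136 to 142 CPM in KO retina. Rpe65, the isomerase of the visual cycle and a defining RPE gene, was at 2751 to 4624 CPM in WT RPE, 2079 to 2150 CPM in KO RPE and at most 9.65 CPM in any retina library. In a bulk sample, fewer cells of a type and less RNA in each cell cannot be told apart.

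The stretch before the start of a gene is shown for 5 of the 10 genes because these share a short pattern there. RefSeq promoter entries of GRCm38.p6 were matched for 8 of the genes that were lower in KO RPE, all but Kng1. The 250 bases upstream of the start were searched on both strands. Ttr, which did not fall, was left out of the search, so the matches cannot show whether a pattern goes with the fall. GTTAAT, the half-site of the HNF1 factors, occurred in 5 of these 8 genes and in 6.43% of 32851 promoters. The pattern was picked with the expression values known, and a match is a description of the letters, not evidence of binding. Capitals mark GTTAAT or its reverse complement ATTAAC, and each sequence runs 5′ to 3′ on the strand of its gene.

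Alb (chr5:90460620-90460869, plus strand): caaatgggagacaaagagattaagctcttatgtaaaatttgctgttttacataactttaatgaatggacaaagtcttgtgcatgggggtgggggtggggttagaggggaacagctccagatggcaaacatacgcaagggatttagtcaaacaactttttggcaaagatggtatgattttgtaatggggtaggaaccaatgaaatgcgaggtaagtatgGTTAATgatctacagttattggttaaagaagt
Afp (chr5:90490464-90490713, plus strand): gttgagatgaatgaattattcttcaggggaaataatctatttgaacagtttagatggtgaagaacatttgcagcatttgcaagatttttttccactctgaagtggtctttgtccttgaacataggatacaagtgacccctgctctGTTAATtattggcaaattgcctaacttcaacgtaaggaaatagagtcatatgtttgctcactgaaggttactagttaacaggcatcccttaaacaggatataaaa
Gc (chr5:89457899-89458148, minus strand): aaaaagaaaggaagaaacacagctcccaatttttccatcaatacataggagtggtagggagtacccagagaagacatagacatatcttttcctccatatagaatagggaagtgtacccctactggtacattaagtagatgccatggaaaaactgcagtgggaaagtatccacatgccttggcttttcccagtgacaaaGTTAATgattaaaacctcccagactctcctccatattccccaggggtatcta
Igfbp1 (chr11:7197537-7197786, plus strand): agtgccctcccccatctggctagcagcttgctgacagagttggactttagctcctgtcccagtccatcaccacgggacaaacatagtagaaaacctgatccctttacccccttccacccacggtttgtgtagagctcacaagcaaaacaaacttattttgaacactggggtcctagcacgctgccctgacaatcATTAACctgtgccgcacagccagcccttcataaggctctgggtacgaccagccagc
Fgb (chr3:83049864-83050113, minus strand): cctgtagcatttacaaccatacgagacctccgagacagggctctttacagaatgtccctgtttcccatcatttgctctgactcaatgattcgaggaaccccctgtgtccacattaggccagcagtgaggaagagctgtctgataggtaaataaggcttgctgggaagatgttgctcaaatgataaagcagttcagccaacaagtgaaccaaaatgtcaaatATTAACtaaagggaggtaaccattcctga

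The match lay 32 bases before the start in Alb, 105 in Afp, 52 in Gc, 56 in Igfbp1 and 29 in Fgb. TTGCNNAA, a C/EBP pattern, occurred in 4 of the 8 genes, Afp, Alb, Ahsg and Fgb, and in 9.56% of all promoters. TGTTTGC, a FOXA pattern, occurred in 3 of the 8 genes, Afp, Alb and Ahsg, and in 4.3% of all promoters. TGTTTAC, a second forkhead pattern, occurred in Apoh alone among the 8 genes and in 3.17% of all promoters. AGTCCA, part of an HNF4 site, occurred in Igfbp1 alone among the 8 genes and in 11.5% of all promoters. None of the 5 patterns was found in this window of Fgg. TGTTTGC ends in the letters that open TTGCNNAA, but their matches in these genes lie at separate positions.

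Among the carriers, Alb encodes albumin, the most abundant plasma protein. WT RPE libraries 1 to 4 held 81.9, 125, 177 and 202 CPM of Alb, and KO RPE libraries 1 to 4 held 3.97, 17.3, 24.8 and 4.44 CPM. The lowest WT library was thus above the highest KO library, and KO libraries 2 and 3 were above KO libraries 1 and 4. The means were 146 ± 53.7 CPM in WT and 12.6 ± 10.2 CPM in KO (SD, n = 4), and the log2 fold change was -3.54 with a standard error of 0.66.

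Afp encodes alpha-fetoprotein, the albumin-like protein of fetal plasma, and its gene lies beside Alb. It was at 28.5, 50.3, 80.8 and 96.9 CPM in WT RPE and at 0.795, 4.46, 7.41 and 1.92 CPM in KO RPE. The groups did not overlap, and the order of the libraries was that of Alb within WT. The means of Afp were 64.1 ± 30.6 and 3.65 ± 2.94 CPM (SD, n = 4), with a log2 fold change of -4.13 and a standard error of 0.70.

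Gc encodes the vitamin D-binding protein, another member of the albumin family. WT RPE held 1.36, 2.35, 2.95 and 3.25 CPM of Gc, and KO RPE held 0.0361, 0.157, 0.340 and 0.0801 CPM. The KO values of Gc rest on only 16 reads in all, against 309 in WT. Its log2 fold change was -3.97 with a standard error of 0.55.

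Ahsg encodes fetuin-A, which binds calcium phosphate in plasma. Its WT RPE libraries held 22.5, 32.6, 43.6 and 44.4 CPM, and its KO RPE libraries held 0.795, 3.92, 6.54 and 1.28 CPM. Again no KO library reached the lowest WT library. The mean of Ahsg was 35.8 ± 10.4 CPM in WT and 3.13 ± 2.65 CPM in KO (SD, n = 4), and the log2 fold change was -3.51 with a standard error of 0.64.

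Apoh encodes beta-2-glycoprotein I, a phospholipid-binding plasma protein. It was at 3.02, 4.25, 4.83 and 5.23 CPM in WT RPE and at 0.289, 0.822, 0.718 and 0.200 CPM in KO RPE. The log2 fold change of -3.08 (standard error 0.44) was the smallest in size of the 9 genes that were lower, and the groups were well apart. The Apoh gene overlaps Prkca in the annotation, and no source used here gives whether reads were counted by strand.

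Kng1 encodes kininogen, the precursor of bradykinin. WT RPE held 3.29, 4.42, 5.35 and 5.50 CPM of Kng1, and KO RPE held 0, 0.587, 0.454 and 0.320 CPM. KO library 1 had no Kng1 read, where 3 reads would be 0.108 CPM. The log2 fold change was -3.76 with a standard error of 0.67. Kng2 is a near-identical copy of Kng1, so the split of reads between them is uncertain. Kng2 was at 0.480 ± 0.175 CPM in WT RPE and 0.0381 ± 0.0320 CPM in KO RPE (SD, n = 4).

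Fgb and Fgg encode the beta and gamma chains of fibrinogen, the precursor of fibrin, from neighbouring genes on chromosome 3. Fgb was at 5.58, 9.58, 9.80 and 10.9 CPM in WT RPE and at 0.253, 0.862, 2.65 and 0.360 CPM in KO RPE. Fgg was at 4.13, 6.84, 7.11 and 7.85 CPM in WT RPE and at 0.289, 0.587, 1.74 and 0.240 CPM in KO RPE. KO library 3 was the highest KO library for both chains and still below each WT library. The log2 fold changes were -3.11 (standard error 0.69) for Fgb and -3.17 (standard error 0.60) for Fgg.

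Igfbp1 encodes a binding protein of insulin-like growth factors that the liver releases in fasting. It was at 3.05, 3.90, 8.73 and 11.3 CPM in WT RPE and at 0.0723, 0.313, 0.983 and 0.0801 CPM in KO RPE. Its log2 fold change of -4.19 (standard error 0.83) was the largest of the 10 genes, and its WT libraries spread the most for their mean. Without KO library 3 the log2 fold change was -5.40, since the other KO libraries held 12 Igfbp1 reads together.

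Ttr was another matter, in level and in direction. WT RPE held 21151, 13758, 18948 and 21668 CPM of Ttr, and KO RPE held 24075, 24429, 24771 and 25708 CPM. Each KO library was above each WT library, the KO libraries were close together, and WT library 2 was the lowest. The means were 18881 ± 3613 CPM in WT and 24746 ± 702 CPM in KO (SD, n = 4), and the log2 fold change was 0.39 with a standard error of 0.19. Ttr stayed above 0 on this scale under all 14 alternatives, between 0.28 and 0.46.

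For 9 of the 10 genes each KO RPE library was below each WT RPE library, a pattern that 7.81% of the 18989 genes tested in RPE showed, and the tenth, Ttr, had the opposite pattern, which 7.37% showed. These genes had been chosen on the same contrast, so nothing is read from the count.

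**Figure D1:**
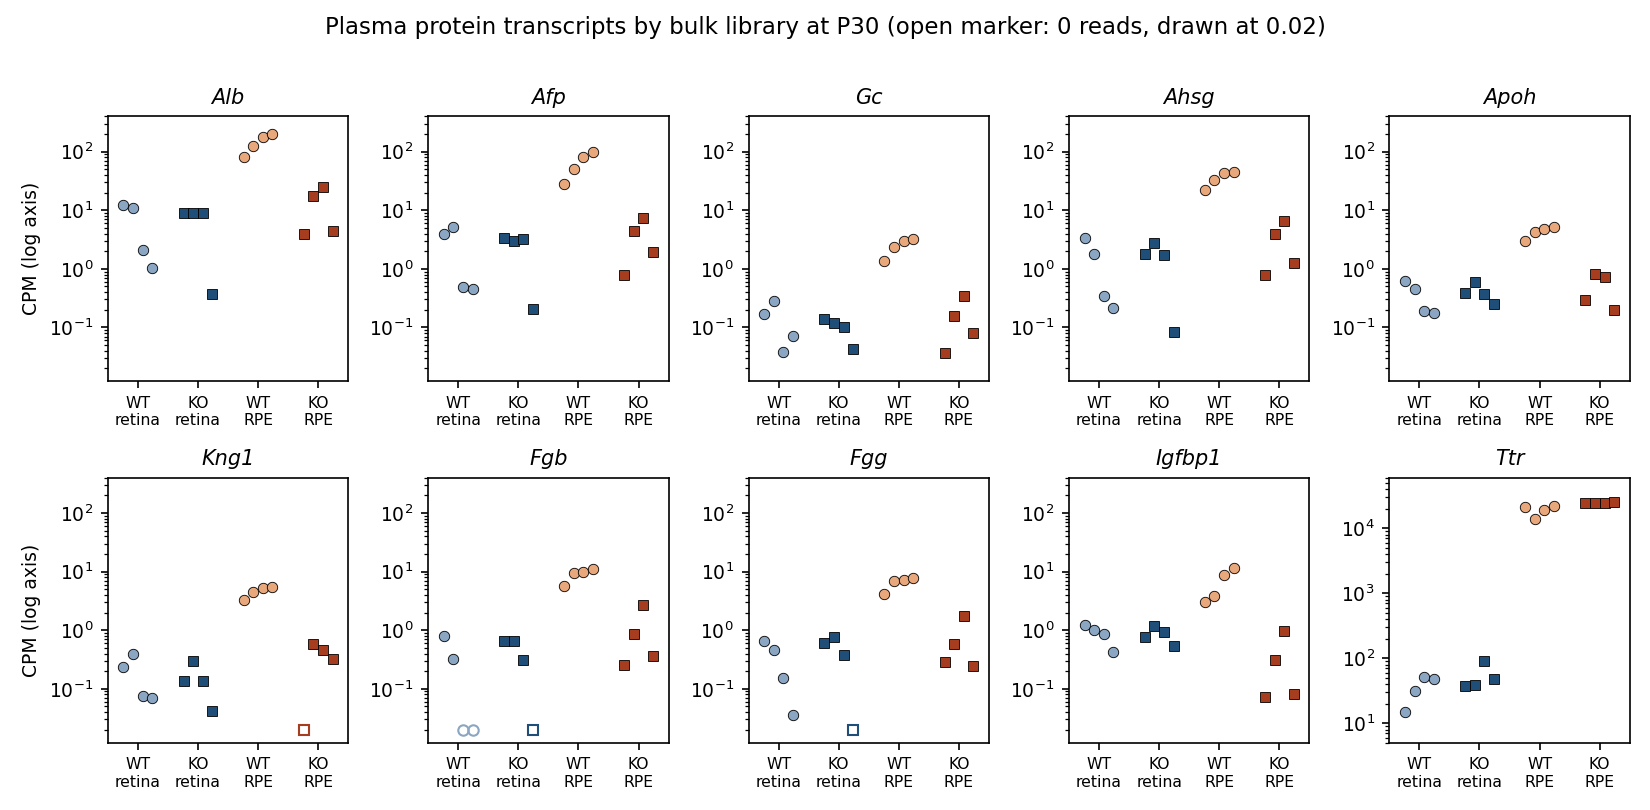
Normalised counts in CPM (log axis) of the 10 genes in each bulk library, 1 panel per gene, with circles for WT, squares for KO replicates 1 to 4 from left to right in a group, and open markers at the foot for libraries with no read. In 9 panels the KO RPE squares lie below every WT RPE circle, for example 3.97 to 24.8 against 81.9 to 202 CPM for Alb, and in the Ttr panel they lie above.

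Levels between genes were compared per kilobase of exon. In WT RPE the order was Ttr at 15920 ± 3047, Alb at 62.5 ± 22.9, Afp at 19.0 ± 9.10, Ahsg at 16.3 ± 4.72 and Igfbp1 at 4.42 ± 2.58 CPM per kilobase (SD, n = 4). Below these stood Fgg at 3.10 ± 0.776, Apoh at 2.72 ± 0.605, Fgb at 2.35 ± 0.615, Kng1 at 1.43 ± 0.313 and Gc at 1.34 ± 0.451 CPM per kilobase. The genes were measured in the same libraries, so their order was read within each library. Fgg was above Apoh, and Apoh above Fgb, in each WT RPE library. Afp and Ahsg changed order between WT libraries, as did Igfbp1 with Fgg and Apoh, and Kng1 with Gc. In KO RPE Alb still led the 9 genes, at 5.39 ± 4.34 CPM per kilobase. Ahsg at 1.43 ± 1.21 and Afp at 1.08 ± 0.873 CPM per kilobase followed, with Ahsg above Afp in each KO library. Gc had the lowest mean in KO RPE as well, at 0.0831 ± 0.0727 CPM per kilobase, but Kng1 was below it in KO libraries 1 and 3.

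Within a genotype the 9 genes moved together across RPE libraries. WT library 1 was the lowest and WT library 4 the highest for 9 of the 9 genes. Among KO libraries, library 3 was the highest for 7 genes and library 2 for the other 2, while library 1 was the lowest for 7 genes and library 4 for the other 2. Their summed level ran from 153 to 388 CPM in WT RPE, a range of 2.53-fold, and from 6.50 to 45.6 CPM in KO RPE, a range of 7.01-fold. The highest KO library, at 45.6 CPM, was below the lowest WT library, at 153 CPM.

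The make-up of these reads changed less than their amount. Alb took 52.3% of the 34483 reads of the 9 genes in WT RPE and 56.1% of the 2349 reads in KO RPE. Ahsg took 13.1% and 13.9%, Fgb 3.31% and 4.60%, Fgg 2.39% and 3.19%, and Kng1 1.71% and 1.49%. Afp had the larger shift, from 22.4% in WT to 16.2% in KO. For each 100 Alb reads there were 34.8, 40.4, 45.7 and 48.0 Afp reads in the WT RPE libraries and 20, 25.9, 29.9 and 43.2 in the KO RPE libraries, so the genotypes overlapped in this ratio. Because the 9 genes were chosen on this contrast, no test was made of the shares.

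**Figure D2:**
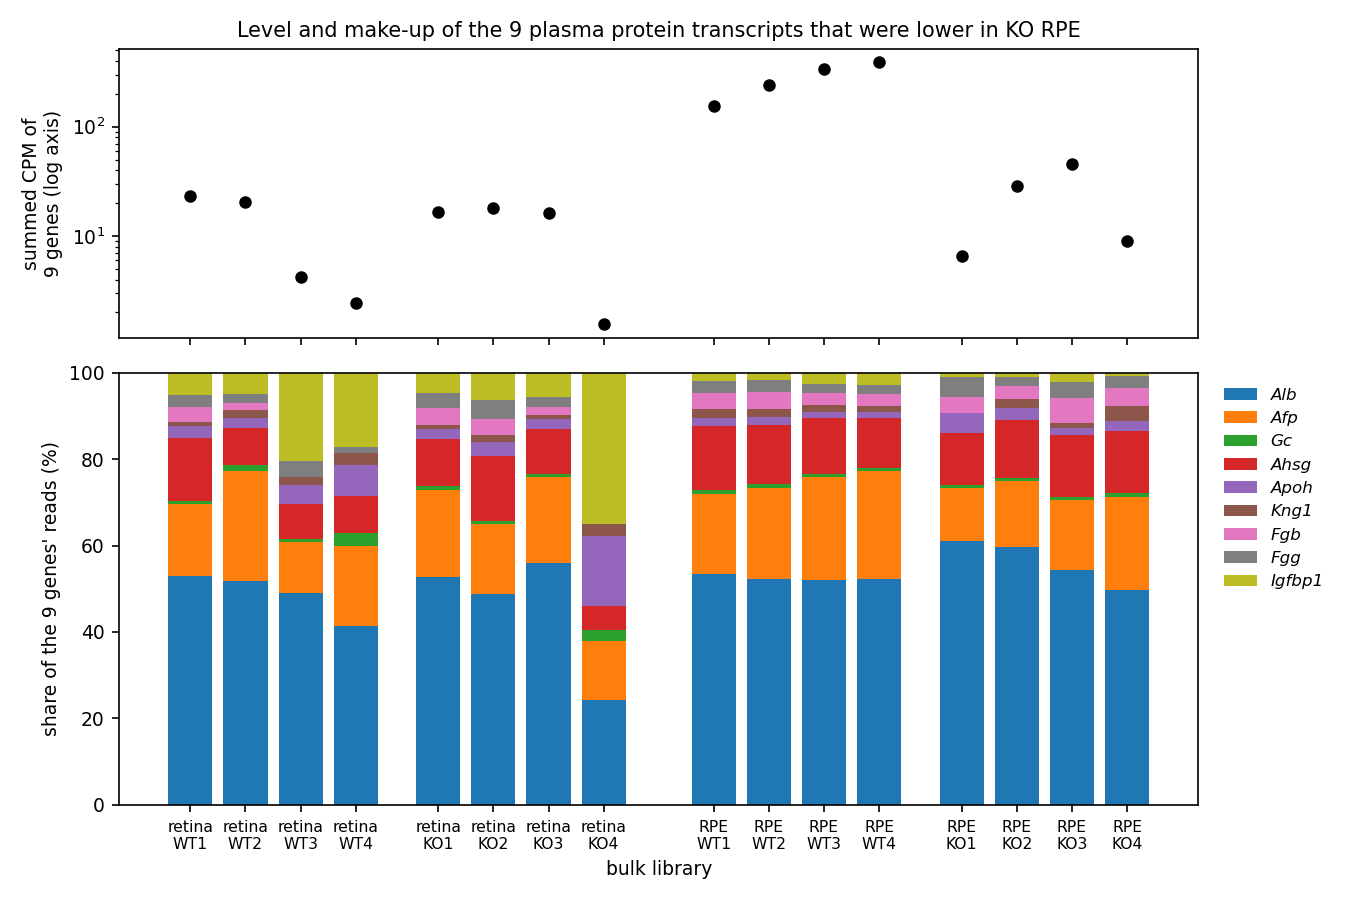
Summed level of the 9 genes in CPM (upper panel, log axis) and each gene's share of their reads in percent (lower panel, stacked bars) in each of the 16 bulk libraries. The sum is 153 to 388 CPM in WT RPE and at most 45.6 CPM elsewhere, while Alb takes about the same part of the bar in WT RPE and KO RPE.

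The retina contrast took no part in the choice of the genes, and in it none of them passed the test. Of the 10 genes, 7 passed the filter on low counts, and 0 of these 7 were past the threshold, which was an adjusted p under 0.05 with a change of 1.5-fold or more (edgeR quasi-likelihood test). Of the 19381 retina genes tested, 10.0% were past it, 3.04% lower and 7.0% higher in KO. The count at an unadjusted p below 0.05 was also 0, where 41.2% of all tested genes reached that level, and the count of DESeq2 was 0. For all 10 genes the libraries of WT and KO retina overlapped, whereas 15.2% of genes had each KO library below each WT library and 16.2% the reverse.

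Alb was at 12.3, 10.7, 2.07 and 1.02 CPM in WT retina and at 8.79, 8.87, 9.07 and 0.378 CPM in KO retina. Its log2 fold change was 0.07 (95% interval -1.27 to 1.41, adjusted p 0.951). Both genotypes thus held libraries several times higher than others of the same genotype.

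Afp was at 3.88, 5.25, 0.490 and 0.458 CPM in WT retina and at 3.35, 2.94, 3.22 and 0.210 CPM in KO retina, with a log2 fold change of -0.03 (interval -1.36 to 1.30, adjusted p 0.984). Ahsg was at 3.37, 1.80, 0.339 and 0.211 CPM in WT and at 1.81, 2.73, 1.69 and 0.0841 CPM in KO, with a log2 fold change of 0.17 (interval -1.20 to 1.54, adjusted p 0.884). The same libraries were low for both genes: WT 3, WT 4 and KO 4. These were the 3 lowest retina libraries for 8 of the 9 genes, and the summed level of the 9 genes was 4.22, 2.47 and 1.56 CPM in them against 16.2 to 23.2 CPM in the other 5.

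Igfbp1 had the narrowest interval of the 9 in retina. It was at 1.22, 1.02, 0.867 and 0.423 CPM in WT and at 0.769, 1.17, 0.914 and 0.547 CPM in KO, with a log2 fold change of -0.04 (interval -0.64 to 0.56, adjusted p 0.938). Apoh was at 0.359 ± 0.213 and 0.402 ± 0.144 CPM and Fgg at 0.323 ± 0.280 and 0.439 ± 0.337 CPM in WT and KO retina (SD, n = 4), with log2 fold changes of 0.18 (interval -0.62 to 0.98) and 0.51 (interval -0.83 to 1.84). Their adjusted p was 0.786 and 0.621. Gc, Kng1 and Fgb held 16, 22 and 32 reads in all WT retina libraries together and 13, 20 and 55 in KO, too few for the test. The intervals of Alb, Afp, Ahsg and Fgg reach past a 2-fold change in this fit. With the replicate number as a block they were -0.50 to 0.80 for Alb, -0.69 to 0.85 for Afp and -0.48 to 0.99 for Ahsg. These lay within a 2-fold change, and the interval of Fgg was -0.27 to 1.15. The labels do not state a pairing, so the block intervals hold only if the numbers mark pairs.

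Ttr was at 14.8, 31.2, 51.0 and 47.1 CPM in WT retina and at 37.3, 38.4, 90.9 and 48.4 CPM in KO retina. WT library 1 was the lowest and KO library 3 the highest. The log2 fold change was 0.58 (interval -0.08 to 1.24, adjusted p 0.22). With the replicate number as a block it was 0.61 with a standard error of 0.15 and an adjusted p of 0.00686, past the threshold, so 1 of the 7 tested genes was called in that fit. Over the 14 alternatives its adjusted p ran from 0.00686 to 0.679. KO was above WT by this measure in 4 of 4 same-numbered pairs. Whether any of the 10 genes changed by a different amount in RPE than in retina was not tested, since the RPE contrast chose them.

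**Figure D3:**
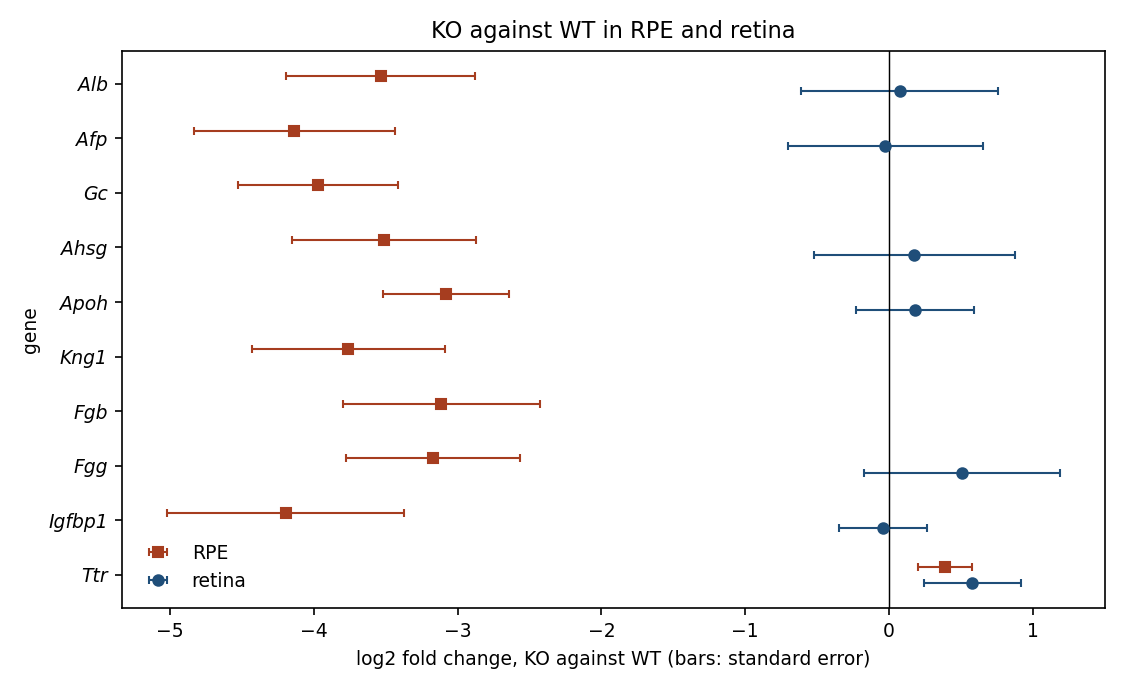
Log2 fold change of KO against WT (horizontal axis, bars are standard errors) for the 10 genes in RPE (squares) and, for the 7 genes tested there, in retina (circles). In RPE 9 genes lie between -4.19 and -3.08 and Ttr at 0.39; in retina the genes lie between -0.04 and 0.58.

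Pooled over the libraries of a genotype, Alb and Afp took shares of the 9 genes' reads in retina near those in RPE. Alb took 51.6% of 1451 reads in WT retina and 51.7% of 1727 reads in KO retina, and Afp took 19.9% and 18.5%. Igfbp1 took more, 6.89% and 6.20% of the reads in WT and KO retina against 2.29% and 1.62% in RPE. In the 3 retina libraries where the other genes were low, Igfbp1 took 20.5%, 17.1% and 35.1% of the 9 genes' reads, which were 112, 70 and 37 in number. In the same libraries Apoh took 4.46%, 7.14% and 16.2% and Alb 49.1%, 41.4% and 24.3%, so the pooled shares rest on the other 5 libraries. RPE and retina were normalised separately, so these are shares within each library.

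Genes that work with the 10, or that belong to the same trades, were followed in RPE with lists of 4 kinds. Of 63 other plasma protein genes, 37 passed the filter, and 20 of them fell, 2 rose and 15 were not past the threshold. Over all genes tested in RPE, 4.97% were past it, 2.95% lower and 2.02% higher. The median log2 fold change of the 37 was -2.08, beside -0.02 over all genes tested. The lowest p among those that fell belonged to Serpinc1, antithrombin, which went from 2.14 ± 0.739 to 0.346 ± 0.0457 CPM (SD, n = 4), with a log2 fold change of -2.61 and an adjusted p of 0.0027. F2, prothrombin, went from 2.16 ± 0.784 to 0.193 ± 0.0871 CPM, with a log2 fold change of -3.46 and an adjusted p of 0.00304. Serpina1c and Serpina1b, which encode forms of alpha-1-antitrypsin, fell, with log2 fold changes of -3.25 and -3.12. They belong to a family of near-identical copies, so their separate values are uncertain. Cpb2, a carboxypeptidase that slows the breakdown of fibrin, fell by 3.93 on the log2 scale, from a WT mean of 0.501 CPM.

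The list did not move as a whole. Fetub, fetuin-B, which neighbours Ahsg, rose, with 22.1 ± 6.56 CPM in WT and 43.3 ± 2.80 CPM in KO (log2 fold change 0.97, adjusted p 0.039). Serpinf2, the plasmin inhibitor, rose, with 4.43 ± 1.30 CPM in WT and 11.6 ± 1.76 CPM in KO (log2 fold change 1.39, adjusted p 0.0112). With the replicate block, 1 gene of the list rose in place of 2. Trf (transferrin) was at 1311 ± 317 and 1549 ± 49.6 CPM, Pon1 (paraoxonase) at 662 ± 165 and 998 ± 39.3 CPM and Vtn (vitronectin) at 142 ± 101 and 91.2 ± 42.5 CPM in WT and KO, and these 3 were not past the threshold. The number that fell changed when 1 library was left out. It was 13 without WT library 3, WT library 4 or KO library 1, 11 without KO library 2 and 12 without KO library 4. It was 16 without WT library 2, 21 without KO library 3 and 25 without WT library 1. The number of all RPE genes that fell moved too, from 561 to between 336 and 603.

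Of 31 genes for hepatocyte enzymes and transporters, 23 did not pass the filter, and 4 of these, Tdo2, Cyp2c29, Mup3 and Mup20, had no read in any RPE library. Of the 8 tested, 4 fell and 0 rose, beside 2.95% and 2.02% of all genes tested in RPE, and DESeq2 also called 0 higher. An unadjusted p below 0.05 was found for 5 of the 8, beside 20.3% of all genes. Those that fell included Hpd, an enzyme of tyrosine breakdown, Fbp1, an enzyme of gluconeogenesis, and Slco1b2, an organic anion transporter, with log2 fold changes of -3.17, -2.10 and -1.23. Fah, which ends tyrosine breakdown, was at 44.9 ± 6.89 and 34.5 ± 2.34 CPM, Arg1, an arginase, at 7.67 ± 6.27 and 10.0 ± 4.06 CPM and Cps1, of the urea cycle, at 1.68 ± 1.06 and 2.06 ± 0.819 CPM, none of them past the threshold. The enzyme list too was chosen with earlier results of these data known, so its counts are a description. With the replicate block 1 enzyme gene fell in place of 4. Without the filter on low counts, which a gene could pass through WT alone, 2 fell. The count was 0 without KO library 2, 1 without WT library 4 or KO library 1, and 2 without WT library 3 or KO library 4.

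Of 22 genes for liver-enriched transcription factors, 12 were tested and 0 fell, and DESeq2 also called 0 lower. Over all genes tested in RPE 2.95% fell and 2.02% rose. A count of 0 among 12 is near that share and is not read as a result. An unadjusted p below 0.05 in either direction was found for 3 of the 12, a share near the 20.3% of all genes tested in RPE. Hnf4a was at 58.2 ± 10.2 CPM in WT RPE and 46.9 ± 4.32 CPM in KO RPE (log2 fold change -0.31, adjusted p 0.25). Zbtb20 and Zhx2, both known to hold down Afp in the adult liver, were at 231 ± 19.2 and 249.5 ± 20.8 CPM and at 37.6 ± 8.46 and 40.9 ± 3.88 CPM. Cebpd, a C/EBP factor of the acute-phase response, was the 1 gene that rose, with 14.1 ± 3.29 CPM in WT and 68.2 ± 10.9 CPM in KO (log2 fold change 2.28, adjusted p 0.000747).

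Of 34 receptors and partners of these plasma proteins, 30 were tested, and 4 fell, 3 rose and 23 were not past the threshold. The shares of all genes tested in RPE were 2.95% lower and 2.02% higher. Rbp4, the partner of transthyretin, went from 4.63 ± 0.876 to 1.34 ± 0.529 CPM, with a log2 fold change of -1.78 and an adjusted p of 0.0101. Plg, plasminogen, which cuts fibrin, went from 2.80 ± 0.991 to 0.260 ± 0.216 CPM, with a log2 fold change of -3.41 and an adjusted p of 0.0159. Rbp4 and Plg are on the list of plasma proteins as well. Itgb3, an integrin chain that binds fibrinogen, fell, with a log2 fold change of -0.92. Itgb2 and Icam1, a leukocyte integrin chain and its ligand, rose by 1.23 and 0.80 on the log2 scale, and Igfbp7 rose by 0.76. Stra6, the receptor of RBP4, was at 1628 ± 280 and 1290 ± 43.4 CPM, Lrp1 at 1790 ± 189 and 1626 ± 119 CPM and Igfbp5 at 1938 ± 357 and 1987 ± 220.2 CPM, not past the threshold. Without KO library 4 the counts were 2 lower and 1 higher, and without WT library 3 the count of higher genes was 1.

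**Figure D4:**
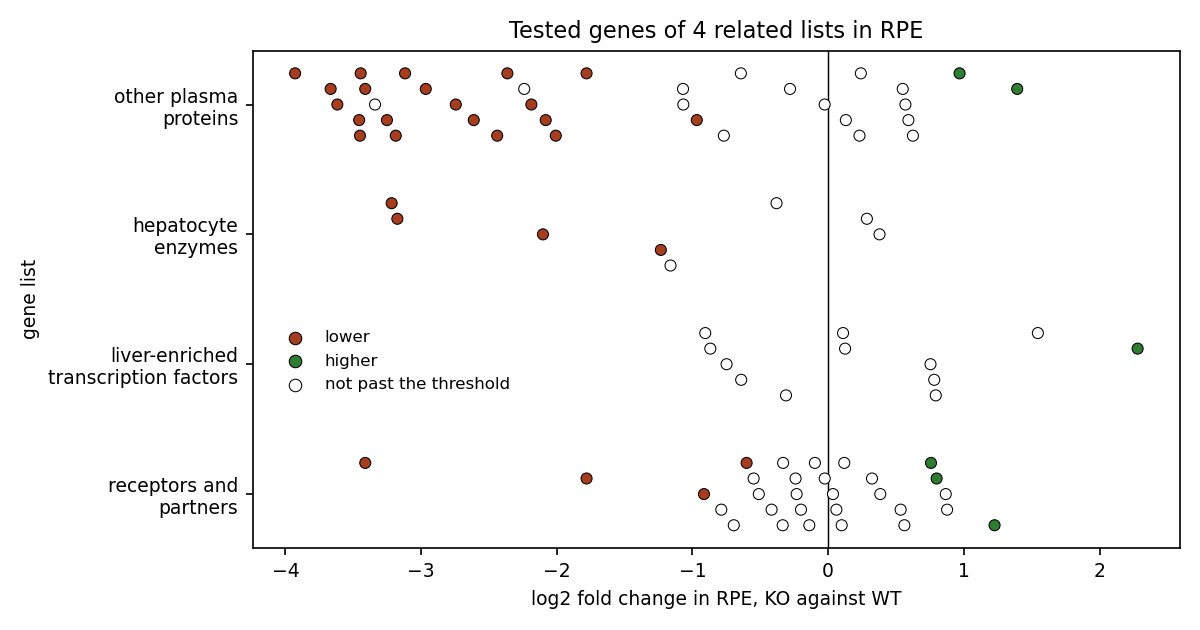
Log2 fold change of KO against WT in RPE (horizontal axis) for the tested genes of the 4 lists, 1 point per gene, with filled points past the threshold and open points not past it. Filled points below 0 number 20 of 37 among the other plasma proteins and 4 of 8 among the hepatocyte enzymes, and none of the 12 transcription factors is filled below 0. Of all genes tested in RPE 2.95% fell, a share that 0 of 12 is near, and the lists were chosen with earlier results known.

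The mean pattern of the 10 genes over the 8 RPE libraries was also sought among all other genes with a mean of at least 1 CPM. Ttr was part of this mean, although it ran opposite to the other 9 genes (r from -0.73 to -0.61). Likeness was the correlation of log2 CPM with the mean of the standardised log2 CPM of the 10 genes. The libraries fall into the 2 genotypes, and so it describes the contrast as well as the spread within it. Of 16730 candidates the 10 most alike were Ambp (r = 0.999), Serpina1a, Rnf145, Serpina1b, Serpina1d, Fga, Apoa2, Serpina1e, Lrtm2 and Apoa1 (r = 0.986). Of these, 8 are on the plasma protein list. The 10 genes had been chosen on this contrast and the list with earlier results known, so nothing is read from this number. Ambp, the precursor of alpha-1-microglobulin, was at 3.50 ± 1.44 and 0.316 ± 0.360 CPM in WT and KO RPE (SD, n = 4), and Apoa1, the main protein of HDL, at 16.7 ± 4.09 and 1.52 ± 1.34 CPM. The other 2, Rnf145 and Lrtm2, were at 161 ± 5.76 and 121 ± 9.11 CPM and at 34.2 ± 4.68 and 14.5 ± 2.90 CPM.

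Several of the genes lie next to each other in the mouse genome (GRCm38, GENCODE M21). Alb (chr5:90460897-90476602) and Afp (chr5:90490737-90508907) are 14135 bases apart, and Gc (chr5:89417522-89457898) is on the same chromosome. Fgg (chr3:83007724-83015049) and Fgb (chr3:83040141-83049863) flank Fga, the third chain of fibrinogen, which went from 9.42 ± 2.94 to 0.762 ± 0.687 CPM in RPE (adjusted p 0.0116, log2 fold change -3.62). Ahsg (chr16:22891277-22899449) and Kng1 (chr16:23057865-23082078) share a chromosome with Fetub between them, and Igfbp1 (chr11:7197782-7202546) and Apoh (chr11:108343354-108414396) are far apart.

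Nearby genes outside the plasma protein lists were given the same look. Rassf6, on the far side of Afp, was at 0.467 ± 0.214 and 0.877 ± 0.201 CPM in WT and KO RPE. Igfbp3, 3540 bases from Igfbp1, was at 66.9 ± 12.1 and 71.7 ± 24.6 CPM. Dnajb11, beside Ahsg, was at 89.9 ± 9.69 and 96.2 ± 4.96 CPM, and Plrg1, beside Fgb, at 26.3 ± 1.14 and 28.2 ± 1.56 CPM. None of these 4 was past the threshold. Lrat, which forms retinyl esters and is the nearest tested gene on the other side of Fgg, fell from 2558 ± 431 to 1536 ± 103 CPM (adjusted p 0.0184, log2 fold change -0.74).

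Markers of other cells moved between RPE libraries too, and their part in the values above was not tested. The counts below stand beside 2.95% of all genes tested in RPE that fell and 2.02% that rose. Of 11 blood genes, 9 were tested and 2 fell, S100a8 and S100a9 of neutrophils, and the summed level ran from 2481 to 4313 CPM in WT and from 922 to 2585 CPM in KO. Of 17 lens genes, 12 were tested and 2 fell, Mip and Lim2 of the lens fiber membrane, with sums of 34.2 to 1110.0 CPM in WT and 20.3 to 48.8 CPM in KO. The 10 rod genes summed to 1002, 15816, 15743 and 1528 CPM in WT libraries 1 to 4. In KO libraries 1 to 4 they summed to 668, 3871, 5510 and 1056 CPM. The KO rod sums ran in the same order as the sums of the 9 genes, and the WT rod sums did not. Of 8 Müller glia genes 1 rose, Clu (clusterin). The sums of this list were 15806 to 23688 CPM in WT and 24228 to 24540 CPM in KO, without overlap. In retina they were lower, 4485 to 4875 CPM in WT and 5942 to 6343 CPM in KO. The list shares Rlbp1 with the RPE list, and its sum in RPE libraries is no measure of Müller cells. The sums of 8 genes of ciliary body and iris were 132 to 222 CPM in WT and 207 to 319 CPM in KO, highest in library 1 of each genotype, the library where the 9 genes were lowest in sum. Library 1 was also the highest of each genotype for fibroblast and sclera genes (2120 CPM in WT, 1759 CPM in KO). The same held for pericyte genes (235 CPM in WT, 222 CPM in KO). Of 9 genes of microglia and macrophages 7 rose, from sums of 391 to 644 CPM to 721 to 794 CPM, and of 12 RPE genes 2 fell, Rpe65 and Lrat, with sums of 25129 to 37625 and 23553 to 25396 CPM.

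In single cells, 5 of the 10 genes had a row in the matrix: Ttr, Afp, Igfbp1, Apoh and Fgg. The other 5 were not analysed here in single cells. The 6 libraries held 26764 cells, between 2558 and 5633 in each, with a median of 1349 to 4357 UMIs per cell, and 49 barcodes occurred in more than 1 library. The P30 libraries were sequenced in another batch than those of P19 and P25, so age and batch cannot be told apart. Adipor1 counted 2646, 2196 and 1658 UMIs in the WT libraries of P19, P25 and P30 and 614, 846 and 385 in the KO libraries.

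Ttr was found with RPE genes. Cells with none of 11 RPE markers held Ttr at 3.98 CPM (here UMIs in place of reads), and 1.24% of these 24351 cells had a Ttr UMI. Among the 22 cells with 3 markers the share was 45.5% and the level 1219 CPM, and all 43 cells with 6 or more markers had Ttr. In the 9 cells with 9 markers Ttr reached 86288 CPM. The 103 cells with at least 3 RPE markers held 93.5% of the 9865 Ttr UMIs of the series, at a median of 2499 UMIs per cell. Ttr was not among the markers that sorted the cells.

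By library, Ttr was found in 16 of 36 such cells of WT P19 (44.4%, exact 95% interval 27.9 to 61.9) and in 21 of 30 of KO P19 (70.0%, 50.6 to 85.3). At P25 the share was 6 of 9 cells in WT (66.7%, 29.9 to 92.5) and 5 of 7 in KO (71.4%, 29.0 to 96.3). At P30 it was 10 of 10 cells in WT (100%, 69.2 to 100) and 10 of 11 in KO (90.9%, 58.7 to 99.8). The intervals, which cover counting error only, overlapped between genotypes at each age. No test was made, since each genotype had 1 library at an age.

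As a background, 0.656% and 0.335% of rods had a Ttr UMI at P19 in WT and KO, 0.315% and 0.726% at P25, and 2.90% and 3.56% at P30, at median depths between 1099 and 2550.5 UMIs. All 6 shares in cells with RPE markers were far above these. The level of Ttr in the cells with RPE markers was 5494 CPM in WT and 10997 in KO at P19, 19097 and 21488 at P25, and 42530 and 51014 at P30. The marker number of the cells differed between libraries, and no order between genotypes was read from so few cells.

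**Figure D5:**
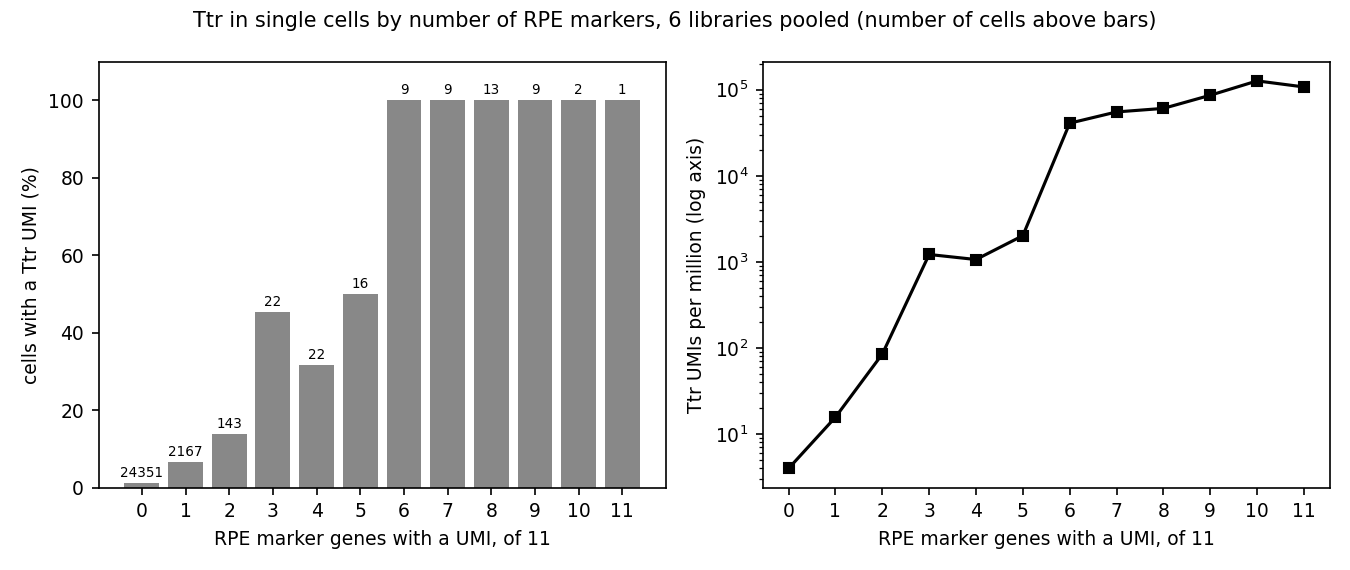
Share of cells with a Ttr UMI in percent (left, bars, with the number of cells above) and Ttr in CPM of UMIs (right, log axis) against the number of RPE markers detected in a cell, with the 6 libraries pooled. The share is 1.24% at 0 markers, 45.5% and 31.8% at 3 and 4 markers and 100% at 6 or more.

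The other 4 genes were near the limit of detection in single cells. Apoh had 68 UMIs in 67 of the 26764 cells, Fgg 31 UMIs in 30 cells, Afp 28 UMIs in 22 cells and Igfbp1 18 UMIs in 18 cells. Together 137 cells held any of them, and no cell held more than 1 of the 4 genes. Among the 103 cells with RPE markers, Afp was found in 2 cells with 1 UMI each, and Apoh, Fgg and Igfbp1 in 0 cells. By 3 counts of the total this allows up to 2.91% of cells with a UMI, which at a median of 2499 UMIs per cell sets no limit on cells that express the gene. Rods held 45 of the 137 cells, with Afp in 0.0600% and Apoh in 0.163% of 11665 rods. At this depth no cell class could be named for these 4 transcripts.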

How the data were processed

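Bulk RNA-Seq libraries of retina and RPE, 4 in each group, were analysed together with 6 single-cell libraries, and the labels gave genotype, tissue, age and replicate number. For bulk, the authors deposited raw read counts for each Ensembl gene, 1 column per library. For single cells, the authors deposited natural log values after scaling each cell to 10000. These values had been scaled and logged a second time: after 1 inverse step 66.67% of 46532493 values were whole to within 0.01, and after 2 steps 99.99907%, with 3 cells not whole. The recovered UMI counts were used. The submitters' processing notes name mm10, Cell Ranger 2.1, Seurat 3.2.2, bcl2fastq, FastQC, edgeR 3.20.9 and HOMER. No source used here names the aligner, the counting program or the cell filters. Bulk counts do not hold per-cell information, and total counts of 20133143 to 38409496 per library set the precision of low genes.

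Gene symbols came from GENCODE M21, which matched 53620 of 53801 identifiers, and promoters from RefSeq (GRCm38.p6). Counts were analysed with edgeR 4.0.16 and limma 3.58.1 in R 4.3.3, with DESeq2 1.42.0 as an alternative. Genes passed edgeR's default filter, TMM factors scaled the libraries, and KO was set against WT in each tissue by the quasi-likelihood test and Benjamini-Hochberg adjustment, with the study's threshold, an adjusted p under 0.05 with a change of 1.5-fold or more. Intervals of log2 fold changes are 1.96 standard errors on either side. In simulated data with 200 changed genes the RPE fit called 90% of 8-fold and 42% of 2-fold changes, and the retina fit 97% and 83%. The changed genes were drawn at random from all tested genes. These shares need not hold for Alb, Afp, Ahsg and Fgg in retina, whose standard errors were 0.68 to 0.70. Same-numbered WT and KO libraries deviated together from their group means (r from 0.326 to 0.701 in RPE and from 0.161 to 0.276 in retina). Different-numbered libraries ranged from -0.699 to 0.682 in RPE and from -0.253 to 0.206 in retina, and some agreed better than the same-numbered ones. Each same-numbered r was above 0.1, so a fit with the replicate number as a block was run as an alternative. It is given where it changed a call and for some retina intervals. The labels do not state that same-numbered libraries are pairs, and these r values do not settle it. No pair of replicates agreed within sampling noise.

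Cells with at least 3 of 11 RPE markers were set apart. A marker shared with Müller glia was left out. Rods had at least 5 of 10 rod markers and no RPE marker. Shares have exact binomial intervals at 95%, and a count of 0 allows up to 3 cells. Doublets were not called. Cells and figures were handled in Python 3.11.15 with pandas 2.3.3, numpy 2.4.6, matplotlib 3.10.9 and scipy 1.17.1.

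The 10 genes, the lists and the markers were chosen with earlier results of these data known. Named in the text are the 10 genes, Adipor1, of each list up to 5 genes past the threshold in each direction with the smallest p and up to 3 genes not past it with the highest mean, the nearest tested neighbours, and the 10 most alike in pattern. Genes named beyond this rule (Kng2, Rpe65, genes with no read and single markers) were chosen after their values were seen. Some genes that the rule names are not reported here. Alternatives were another scaling, no filter, DESeq2, a fit of all 16 libraries, no minimum fold change, the block, leaving out each library, other marker numbers and cells thinned to 1000 UMIs.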

Additional observations from a re-analysis of the deposited data

Results flagged for a closer look

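Of 44 groups of 4 libraries examined for the 10 genes and Adipor1, 2 held a library far from the other 3, where chance gives about 1 in 20. In KO retina, library 4 held 0.378 CPM of Alb against 8.79 to 9.07 CPM in the other 3 libraries. The same library held 0.210 CPM of Afp against 2.94 to 3.35 CPM in the other 3.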

How the results depend on the processing

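All 140 recomputed log2 fold changes of the 10 genes in RPE kept their sign, and 5 moved by more than the spread between libraries: without KO library 3, -4.71 for Gc, -5.40 for Igfbp1, -4.18 for Fgb and -4.10 for Fgg, and without KO library 1, -3.34 for Kng1. In retina 77 of 98 kept their sign, and 1 became a call, Ttr in the fit with the replicate block (0.61), which took the count of called genes from 0 to 1. The block also took the hepatocyte enzymes that fell from 4 to 1 and the other plasma proteins that rose from 2 to 1, and it moved no other list count by over 1.5 times. Without the filter on low counts 2 enzymes fell. DESeq2 called 2 transcription factors higher in place of 1. With all 16 libraries in 1 fit, 3 transcription factors and 1 other plasma protein rose. Leaving out each library in turn gave 0 to 0 of the 10 genes in retina, 11 to 25 other plasma proteins that fell and 1 to 2 that rose, 0 to 4 enzymes that fell, 1 to 3 transcription factors that rose, and 2 to 6 receptors and partners that fell and 1 to 4 that rose. With at least 2 RPE markers the share of cells with Ttr was 23.5%, 45.2%, 17.1%, 25.8% and 63.2% in WT P19, KO P19, WT P25, KO P25 and WT P30, where more cells with few markers enter by construction. Thinned to 1000 UMIs it was 39.0%, 66.4%, 61.8%, 59.0%, 95.5% and 86.8% in these 5 and KO P30. Apart from these marker numbers, the cause of these shifts was not tested. Over all RPE genes, 561 fell and 383 rose, against 782 and 659 by DESeq2, 844 and 727 with all 16 libraries in 1 fit, and 336 to 603 and 226 to 1076 without 1 library. In retina, library totals alone moved the median log2 fold change of all genes from 0.00 to 0.11 and the calls from 589 lower and 1357 higher to 390 and 1802. Depth limits the single-cell values of Apoh, Fgg, Afp and Igfbp1 and the retina values of Gc, Kng1 and Fgb, which rest on few reads.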
